A study of Rattus norvegicus with 8 samples.

Results

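The cell cycle and DNA replication genes described here are 40 genes chosen by name, and their spots are the non-control spots of each array whose gene name equals one of them. Of the 40 genes, 38 had spots under their own name, 77 of the 43379 non-control spots, against 35199 gene names on the whole array. Mki67 and Cdkn3 were not found under these names and were not analysed here. For 37 of these 38 genes, and for 20787 of all gene names, every one of the 8 rats gave a level. Cdk6, a partner kinase of the D-type cyclins, was left without a level because its single spot reached 2 times its local background in 4 COS rats but in only 2 CES rats.

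RNA came from the dentate gyrus (DG) of ovariectomized (OVX) adult female Sprague-Dawley rats of 150 to 200 g, all of which underwent status epilepticus (SE) induced by kainic acid. The 4 COS rats received oil before SE and the 4 CES rats received E2 replacement, given as estradiol benzoate in oil. The sample records state 4 doses of 2 μg every 24 h, 2 before and 2 after SE, with 16 mg/kg of kainic acid and pentobarbital to stop SE after 5 h. The methods of the study instead place all injections before SE and give another dose of kainic acid and another drug to end SE. On tissue collection the methods differ among themselves, naming 24 h after SE for every group but, for the arrays, a point within hours of seizure onset. The records put 2 daily doses after SE and give no collection time. Nothing in the arrays decides between these accounts. Both groups were OVX and both were seizured, so COS against CES compares hormone treatment after seizures, and rats without SE were not analysed here.

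Cells that prepare to divide first load the MCM helicase onto replication origins, then copy DNA with the sliding clamp PCNA, and later build a spindle whose checkpoint controls the anaphase-promoting complex. Cyclins and their kinases (CDKs) drive each step, CDK inhibitors hold them back, and E2F factors switch on many replication genes. The DG is known for its stem cells that keep dividing in adult life, and seizures are known to be followed by division of progenitors and of glia. Several of these genes, among them Ccnd1, Ccnd2, Cdk7 and the APC subunits, are also expressed in cells that do not divide. In RNA from whole DG tissue, fewer cells of a type and less RNA per cell cannot be told apart.

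Each array channel held the RNA of 1 rat, with 2 rats of the same group on each of 4 arrays, all on 1 slide. In both groups rats 1 and 3 were labelled with Cy3 and rats 2 and 4 with Cy5. Each group thus had 2 rats per dye, but no array held rats of both groups. A level is the log2 of the background-subtracted intensity over the median of the valid spots of that rat, valid meaning a signal of at least 2 times background, so that 0 is the median valid spot. Valid spots numbered 32381 to 38553 in the COS rats and 30690 to 35352 in the CES rats. A difference is the mean log2 level in CES minus that in COS, and a gene is called when its adjusted p in limma is below 0.05.

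Detection of the members differed between the rats. The scanner software marked 37, 38, 33 and 38 of the 38 genes as well above background in COS rats 1 to 4 and 23, 38, 22 and 36 in CES rats 1 to 4. The low counts of 23 and 22 belonged to the CES rats labelled with Cy3, while the COS rats labelled with Cy3 had 37 and 33. Over all gene names the same mark covered 15009 to 17946 names in the Cy3 rats and 19130 to 21978 in the Cy5 rats. Of the 37 quantified members, 22 were well above background in all 8 rats. Mcm6, Rrm2, Tyms, Tk1, Hells, Top2a, Ccna2, Ccne2, Cdkn2c, Aurkb, Bub1b and Birc5 were so in 2 of the 4 CES rats. The levels of Mcm3, Mcm4, Hells, Ccna2 and Ccnd1 came from 1 of 2 probes and that of Bub1b from 1 of 3.

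**Figure D1:**
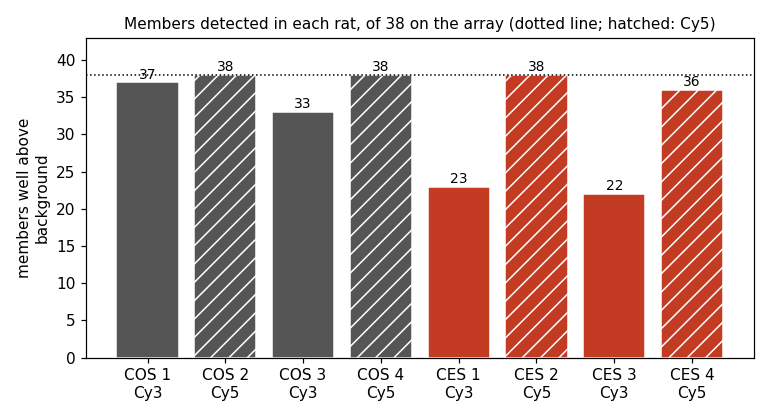
Number of members marked well above background in each of the 8 rats (bars, hatched for Cy5), out of the 38 on the array (dotted line). CES rats 1 and 3 had 23 and 22 members above background, and the other 6 rats had 33 to 38.

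CES rat 2 stood apart from the other CES rats in these genes. Among the 4 CES rats it had the highest level in 27 of the 37 members, and it lay a median of 0.48 above the group mean over the members, against -0.22 over all genes. After loess within arrays and Aquantile between arrays it was highest in 29 members. Among the COS rats, rat 3 was highest in 30 members and rat 4 lowest in 25. The counts that follow are therefore also given without single rats.

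The promoters of the MCM genes and of Cdk1, the kinase of mitosis, are shown because these genes were called lower together and share letters known from E2F sites. RefSeq promoters of the rat build GRCr8, from 250 bases before to 50 after each annotated gene start, matched 30 of the 40 genes. Capitals mark matches to TTTCCCGC, TTTGGCGC, TTTCGCGC or TTTGCCGC on either strand.
Mcm2: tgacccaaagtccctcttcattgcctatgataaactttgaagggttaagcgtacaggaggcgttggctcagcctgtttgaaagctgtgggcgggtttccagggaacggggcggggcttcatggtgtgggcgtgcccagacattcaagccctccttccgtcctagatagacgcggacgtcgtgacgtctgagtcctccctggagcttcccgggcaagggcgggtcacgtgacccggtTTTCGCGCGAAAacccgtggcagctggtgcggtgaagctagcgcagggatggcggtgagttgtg
Mcm3: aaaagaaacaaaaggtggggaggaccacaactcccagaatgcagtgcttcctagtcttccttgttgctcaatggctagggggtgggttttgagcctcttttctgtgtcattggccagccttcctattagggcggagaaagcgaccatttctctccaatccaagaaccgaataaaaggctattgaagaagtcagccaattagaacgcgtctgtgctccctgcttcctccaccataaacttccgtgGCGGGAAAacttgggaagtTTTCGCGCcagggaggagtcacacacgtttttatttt
Mcm5: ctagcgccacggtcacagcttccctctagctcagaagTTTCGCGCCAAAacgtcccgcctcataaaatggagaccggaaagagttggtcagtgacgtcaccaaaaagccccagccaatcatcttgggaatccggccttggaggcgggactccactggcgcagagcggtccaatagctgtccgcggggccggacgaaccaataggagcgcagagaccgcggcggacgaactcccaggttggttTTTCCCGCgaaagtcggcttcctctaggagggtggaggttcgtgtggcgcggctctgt
Mcm6: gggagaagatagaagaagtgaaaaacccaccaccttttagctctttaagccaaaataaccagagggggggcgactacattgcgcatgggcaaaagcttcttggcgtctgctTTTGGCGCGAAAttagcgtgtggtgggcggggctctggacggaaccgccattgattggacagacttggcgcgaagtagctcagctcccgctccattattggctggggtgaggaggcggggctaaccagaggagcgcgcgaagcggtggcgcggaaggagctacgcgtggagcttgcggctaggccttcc
Mcm7: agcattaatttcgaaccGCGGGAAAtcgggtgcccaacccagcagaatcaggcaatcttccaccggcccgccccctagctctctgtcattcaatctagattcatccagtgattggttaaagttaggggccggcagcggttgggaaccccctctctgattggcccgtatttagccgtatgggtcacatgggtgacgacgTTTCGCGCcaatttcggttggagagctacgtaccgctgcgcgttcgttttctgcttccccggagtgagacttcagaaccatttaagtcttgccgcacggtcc
Cdk1: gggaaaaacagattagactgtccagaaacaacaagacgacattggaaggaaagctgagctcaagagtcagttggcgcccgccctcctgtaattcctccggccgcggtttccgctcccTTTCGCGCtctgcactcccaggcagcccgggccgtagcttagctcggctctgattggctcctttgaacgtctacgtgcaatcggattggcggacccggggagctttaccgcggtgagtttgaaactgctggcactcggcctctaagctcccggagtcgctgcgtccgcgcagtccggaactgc

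These windows lie at chr4:122918045-122918344 for Mcm2, chr9:30733697-30733996 for Mcm3, chr13:42404303-42404602 for Mcm6 and chr12:22163129-22163428 for Mcm7, all on the minus strand. Those of Mcm5 at chr19:13488563-13488862 and Cdk1 at chr20:19265043-19265342 lie on the plus strand. In Mcm2, Mcm5 and Mcm6 a pair of matches on opposite strands overlap, which makes 1 longer capital run. E2F letters stood in 8 of the 30 promoters (26.7%), those of Mcm2, Mcm3, Mcm5, Mcm6, Mcm7, Tyms, Hells and Cdk1, against 2.37% of the 27457 gene symbols with a promoter in the table. Since the members were chosen as cell cycle and replication genes, a higher share than over all symbols could be foreseen and is no result of these data. CCAAT, a motif of NF-Y, stood on either strand in 19 members (63.3%) against 39.6% of all symbols. The CHR letters TTTGAA, an element of mitotic promoters, stood in 9 members (30.0%) against 19.4%. Of the quantified members with E2F letters 8 of 8 were called lower in CES, against 12 of the 20 whose promoter had none. For the other motifs the shares lay the other way, with 11 of 17 members with CCAAT and 9 of 11 without it called lower, and 3 of 7 with the CHR letters and 17 of 21 without them. Over all genes 28.6% were called lower, and these splits among so few members were not tested. Most of the 8 members with E2F letters are genes of the MCM ring, so they are not 8 separate cases. A match is a description of the letters and no evidence that a factor bound there.

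**Figure D2:**
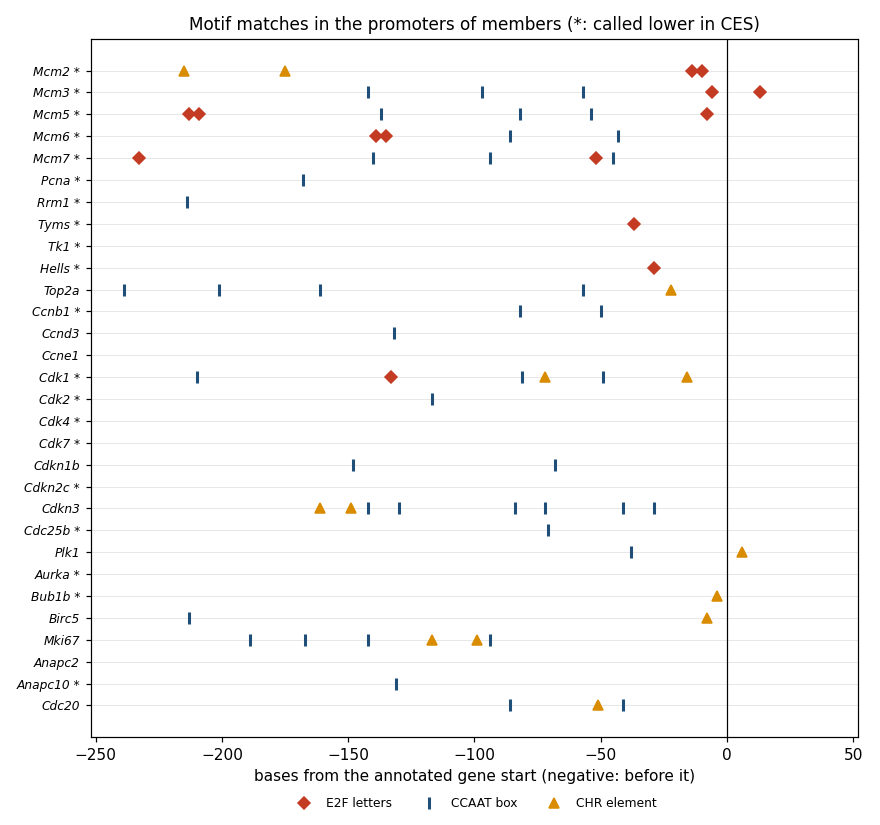
Position of each motif match, in bases from the annotated gene start, in the promoters of the 30 members that the RefSeq table holds (Cdkn3 has 2 annotated promoters, drawn on 1 line, and an asterisk marks members called lower in CES). E2F letters (diamonds) appear in 5 of the 6 MCM genes' rows, Mcm4 having no promoter in the table, and in 3 other members.

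To show what was measured, 4 of the probes behind the results below are printed, each a 60-base oligonucleotide on the array.
Mcm2: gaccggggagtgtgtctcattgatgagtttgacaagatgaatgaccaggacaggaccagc
Pcna: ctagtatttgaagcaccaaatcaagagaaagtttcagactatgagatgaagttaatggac
Tyms: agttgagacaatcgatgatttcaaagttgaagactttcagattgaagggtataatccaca
Cdk1: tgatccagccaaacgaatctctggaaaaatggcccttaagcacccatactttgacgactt

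In the rn4 coordinates of the files the Mcm2 probe spans chr4:122981286-122981436 and the Pcna probe chr3:120011217-120011421, each on the minus strand and each over more genomic bases than the probe has. The Tyms probe lies at chr9:112605733-112605792 on the minus strand and the Cdk1 probe at chr20:20043755-20043814 on the plus strand. Mcm2 and Pcna each have a further probe, and Tyms and Cdk1 were measured by this probe alone.

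Most members were lower in CES than in COS. Of the 37 quantified genes, 26 (70.3%) were called lower and 0 were called higher, against 28.6% of all 20787 genes called lower and 5.74% called higher. At an unadjusted p under 0.05, limma and the methods' t-test also put 0 members higher. The median difference over the members was -0.99, against -0.25 over all genes, so the members lay a median of 0.74 below the median gene. Values of the 2 groups did not overlap in 12 of the members, all with CES lower, against 19.7% of all genes with CES lower and 1.55% with CES higher. The other 14 called members had overlapping values. Among the 22 members well above background in all rats 15 were called lower, with a median of -0.60 relative to all genes, and among the other 15 members 11 were called lower, with a median of -0.99.

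The number of calls depended on the scaling, the relative position of the members less so. After loess and Aquantile the median of all genes moved from -0.25 to 0.05, 14.4% of all genes were called higher and 9.32% lower, and 8 members were called lower and 1 higher. All 8 were among the 26. They were Mcm2, Mcm3, Mcm4, Tyms, Ccnd1, Cdk2, Cdkn2c and Myc, and the member called higher was Ccnd2. The members' median relative to all genes was -0.76 on that scale. Scaling each rat over the spots valid in all rats, instead of over its own valid spots, moved every gene's difference by the same amount. The median of all genes was then 0.14, 9 members were called lower, and the Mcm3 difference was -2.55. Differences and fold values below therefore hold for the main scale unless another is named. Leaving out CES rat 2 raised the members called lower from 26 to 32, and from 8 to 26 after loess. Without COS rat 3 only 5 members were called lower, namely Mcm4, Ccnd1, Cdk2, Cdkn2c and Myc, and the number was 10 without CES rat 1, 15 without COS rat 1 and 17 without COS rat 4. After loess 0 members were called lower without COS rat 1 or without CES rat 1 in limma (11 and 5 at an unadjusted p under 0.05), and 3 to 5 without any other single rat except CES rat 2.

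**Figure D3:**
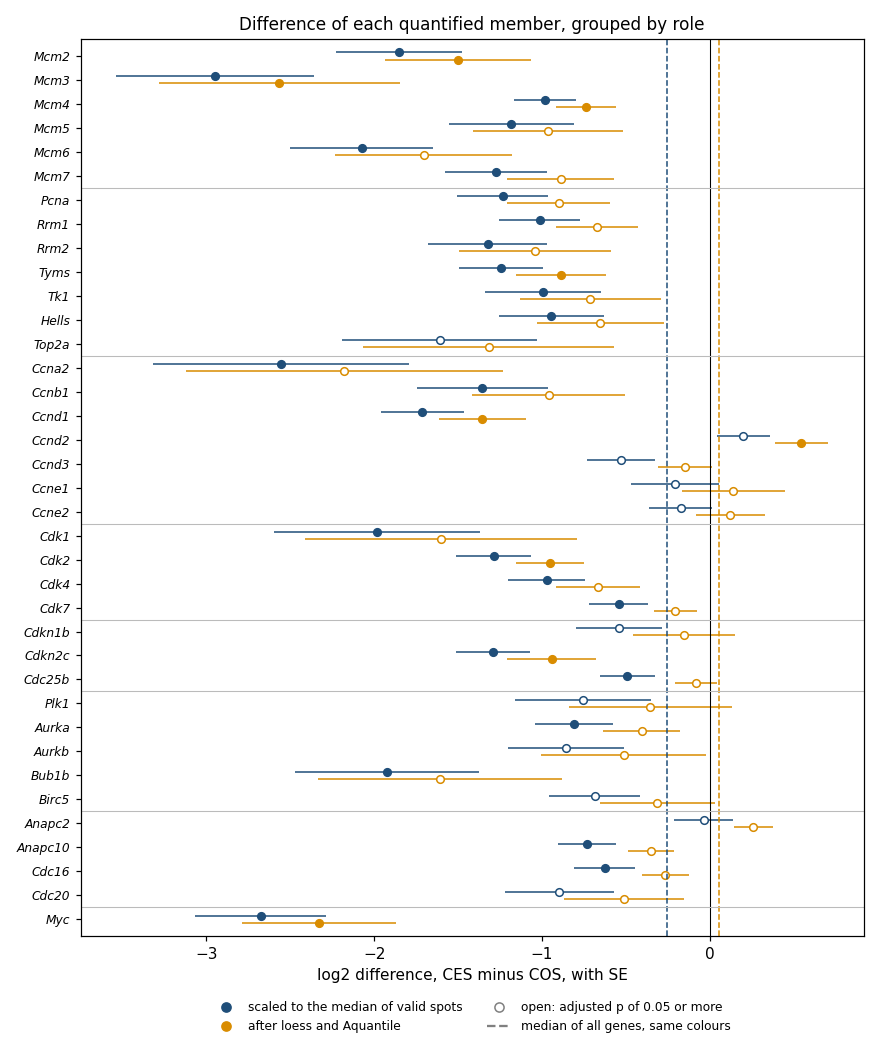
Log2 difference, CES minus COS, of each of the 37 quantified members with its standard error, grouped by role, on the main scale (blue) and after loess and Aquantile (orange). Filled points have an adjusted p below 0.05 and dashed lines mark the median of all genes. On the main scale 26 filled points lie left of the dashed line at -0.25, and on the loess scale 8 lie left and Ccnd2 right of the line at 0.05.

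The genes of the MCM helicase, the ring that unwinds DNA ahead of the fork, were all called lower in CES. Their differences ran from -2.95 to -0.98, with a median of -1.56. Mcm3 had levels of 3.13, 2.59, 3.46 and 2.69 in COS rats 1 to 4 and -0.34, 2.09, -0.44 and -1.23 in CES rats 1 to 4. CES rat 2 was the only CES rat above 0, and still lay below every COS rat. The difference was -2.95 (SE 0.59, adjusted p = 0.00626), a 7.71-fold lower level in CES, and after loess it was -2.56 (adjusted p = 0.0389). Its size rested in part on single rats, the Mcm3 difference being -3.76 without CES rat 2 and -2.31 without CES rat 4, and without COS rat 3 it was -2.72 and not called (adjusted p = 0.0614). Mcm2 had levels of 1.18, 0.95, 1.22 and 0.56 in COS rats 1 to 4 and -1.16, 0.29, -0.86 and -1.76 in CES rats 1 to 4. The groups did not overlap, and the difference was -1.85 (SE 0.376, adjusted p = 0.00662). Its 2 probes differed little, at -1.89 and -1.77. Mcm6, a further ring subunit, had levels of 1.43, 0.92, 1.60 and 0.76 in COS rats 1 to 4 and -1.33, 0.52, -1.09 and -1.68 in CES rats 1 to 4. Here too CES rat 2 was nearest to the COS rats, and the groups did not overlap. The Mcm6 difference was -2.07 (SE 0.427, adjusted p = 0.00692), but after loess it was -1.71 with an adjusted p of 0.0517 and overlapping groups. In CES, Mcm6 was well above background in 2 of the 4 rats.

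For the other 3 ring subunits the groups overlapped by the value of 1 or more rats. Mcm7 had means of 2.17 ± 0.34 in COS and 0.90 ± 0.61 in CES (SD, n = 4), a difference of -1.27 (adjusted p = 0.0121), and overlapped through CES rat 2 at 1.78 and COS rat 4 at 1.71. Mcm4 had levels of -0.57, -1.71, -0.70 and -2.11 in COS rats 1 to 4 and -1.95, -2.67, -1.43 and -2.97 in CES rats 1 to 4. Within each dye the CES rats were below the COS rats, and the overlap was between the Cy3 rats of CES and the Cy5 rats of COS. The Mcm4 difference was -0.98 (SE 0.185, adjusted p = 0.00528), and the probe used was well above background in 3 COS rats and 1 CES rat. A further Mcm4 probe, which gave no level, went the other way, being well above background in 0 COS rats and 2 CES rats. Mcm5 differed by -1.18 (adjusted p = 0.0335), with 3 COS rats and 1 CES rat well above background, and was not called after loess (-0.96, adjusted p = 0.144). Mcm4 and Hells belong to a list of genes that the study drew up from these same samples, so their direction is not independent of it.

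**Figure D4:**
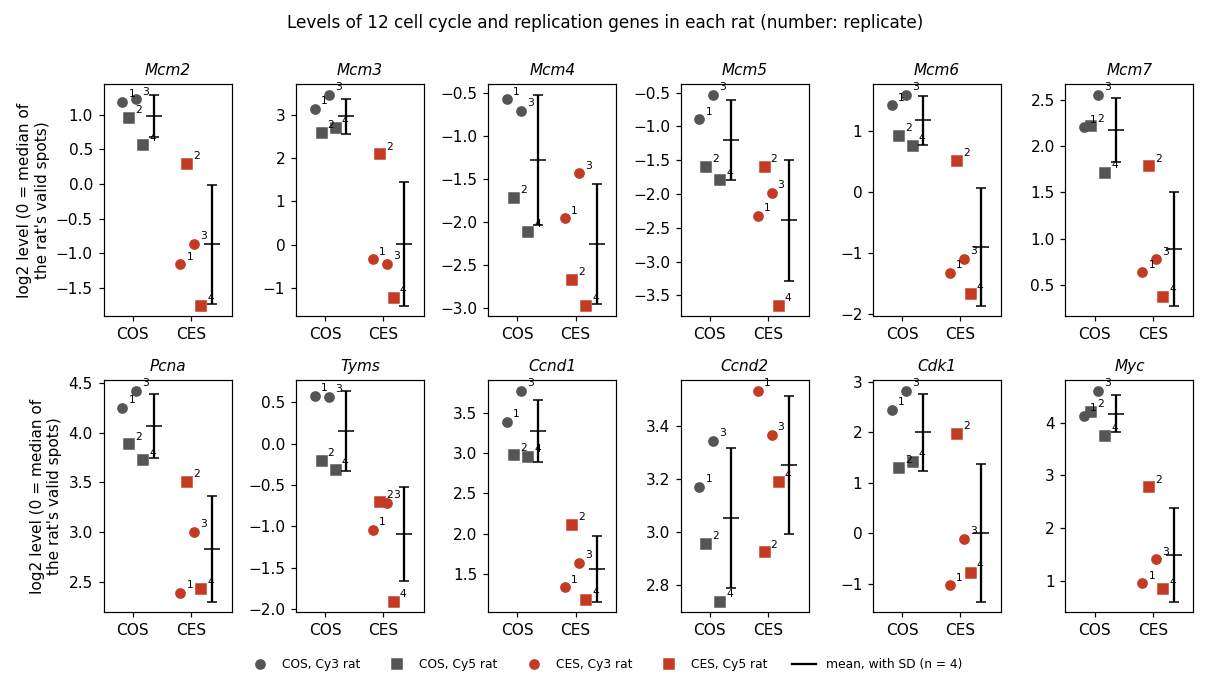
Log2 level of 12 members in each rat (circles Cy3, squares Cy5, numbers the replicate), with the mean and SD of each group of 4 beside the points and a vertical scale of its own in each panel. CES rat 2 is the highest of the CES rats in every panel except those of Mcm4 and Ccnd2, and the CES mean lies below the COS mean in every panel except that of Ccnd2.

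Of the 7 genes of the replication fork, nucleotide supply and chromatin, 6 were called lower. Pcna, the sliding clamp, had levels of 4.25, 3.88, 4.42 and 3.72 in COS rats 1 to 4 and 2.40, 3.50, 3.00 and 2.43 in CES rats 1 to 4. All CES rats lay below all COS rats. Its difference was -1.24 (SE 0.273, adjusted p = 0.00897), a 2.35-fold lower level, and after loess -0.90 (adjusted p = 0.0655) with groups still apart. Tyms, which makes thymidylate, had levels of 0.58, -0.21, 0.57 and -0.32 in COS rats 1 to 4 and -1.04, -0.71, -0.71 and -1.91 in CES rats 1 to 4. The groups did not overlap on either scale, and the difference was -1.25 (SE 0.25, adjusted p = 0.00626) on the main scale and -0.89 (adjusted p = 0.0486) after loess. Rrm1, the large subunit of ribonucleotide reductase, had levels of 0.59, 0.10, 0.96 and -0.05 in COS rats 1 to 4 and -0.60, -0.18, -0.57 and -1.12 in CES rats 1 to 4. CES rat 2 was separated from COS rat 4 by a small gap. The Rrm1 difference was -1.01 (SE 0.24, adjusted p = 0.0115), and after loess it was -0.67 (adjusted p = 0.0787) with overlapping groups.

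The remaining genes of this group had overlapping values. Rrm2, the small subunit of the same enzyme, differed by -1.32 (adjusted p = 0.0187), but its 2 probes gave -0.18 and -2.01, and the probe with -0.18 was well above background in 2 rats of each group. In the deposited log2 table the Rrm2 difference was 0.22 (adjusted p = 0.289), with the opposite sign. Tk1, which salvages thymidine, differed by -0.99 (adjusted p = 0.0488), and with the replicate number as a block its adjusted p was 0.0548. Its only probe is placed on chr3 in rn4, whereas the Tk1 promoter lies on chr10 in GRCr8, and what this probe measures was not tested. Hells, a chromatin remodeler, differed by -0.95 (adjusted p = 0.0404). Top2a, the topoisomerase that untangles copied DNA, had a difference of -1.61 that was not called (SE 0.582, adjusted p = 0.055). CES rat 2 was at 0.05, above 3 of the 4 COS rats, while the other CES rats lay between -2.87 and -1.10. Without CES rat 2 the Top2a difference was -2.31 (adjusted p = 0.000393), and with the replicate block its adjusted p was 0.0493.

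The cyclins were divided. Ccnd1, the D-type cyclin that mitogens induce, had levels of 3.39, 2.98, 3.78 and 2.96 in COS rats 1 to 4 and 1.33, 2.11, 1.63 and 1.18 in CES rats 1 to 4. The lowest COS rat, at 2.96, lay above the highest CES rat, at 2.11. It fell by 1.71 on the log2 scale (SE 0.249, adjusted p = 0.0033), a 3.28-fold lower level. It was called in 23 of 24 alternatives, the methods' t-test being the exception. This count leaves out the fits without single rats after loess, where Ccnd1 was not called without COS rat 1 or without CES rat 1. Ccnd2 had levels of 3.17, 2.95, 3.34 and 2.74 in COS rats 1 to 4 and 3.53, 2.92, 3.37 and 3.19 in CES rats 1 to 4. These overlapped, and the difference of 0.20 (SE 0.158, adjusted p = 0.351) was not called, yet after loess Ccnd2 was 0.55 higher in CES (adjusted p = 0.0425) with no overlap. Ccnd1 and Ccnd2, which serve the same kinases, therefore lay on opposite sides of the median gene, at -1.46 and 0.45. Ccnd3 differed by -0.53 (adjusted p = 0.0656, and 0.0441 with the replicate block) and was -0.15 after loess.

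Of the cyclins of replication and mitosis, Ccna2 and Ccnb1 were called lower and the E-type cyclins were not. Ccna2, which acts in replication and at the entry to mitosis, had levels of 0.85, -0.17, 3.42 and 2.20 in COS rats 1 to 4 and -1.64, 0.52, -0.54 and -2.27 in CES rats 1 to 4. The COS rats split by array, with rats 1 and 2 on 1 array below rats 3 and 4 on the other, and COS rat 2 lay below CES rat 2. The Ccna2 difference was -2.56 with a large error (SE 0.764, adjusted p = 0.028), and after loess it was -2.18 (adjusted p = 0.122). The Ccna2 difference was -3.24 without CES rat 2 and -3.18 without COS rat 2, and it was not called without COS rat 3, COS rat 4 or CES rat 1. Ccnb1, the mitotic cyclin, had levels of 1.05, 0.51, 1.43 and 0.47 in COS rats 1 to 4 and -0.64, 0.68, -0.67 and -1.33 in CES rats 1 to 4. CES rat 2 lay within the COS range and the other CES rats below it. Ccnb1 differed by -1.35 (SE 0.39, adjusted p = 0.0245).

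Ccne1 and Ccne2 open the way to replication with Cdk2. Ccne2 had a difference of -0.17 (adjusted p = 0.507) and Ccne1 one of -0.21 (adjusted p = 0.567), and both were above 0 after loess, at 0.12 and 0.14, as they were after quantile normalization, in the deposited log2 table and when each rat was scaled over the spots that all rats had valid. The 2 probes of Ccne2 differed in sign, at -0.465 and 0.080, and each was well above background in at most 3 rats of a group. The 2 probes of Ccne1, which lie at chr1:90568197-90568256 and chr1:90570642-90570701 of rn4 on the minus strand, went opposite ways. The first had levels of 3.50, 3.32, 3.90 and 3.39 in COS rats 1 to 4 and 2.62, 2.91, 2.87 and 2.78 in CES rats 1 to 4, a difference of -0.73 with no overlap. With this brighter probe alone Ccne1 was called lower, and in no other alternative. The second had 0.01, -0.40, 0.36 and -0.49 in COS and 3.54, 2.27, -0.24 and -0.71 in CES. Its high values, 3.54 and 2.27, came from the 2 CES rats that shared an array, and the other CES rats lay within the COS range. The level of Ccne1 in CES is thus uncertain.

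**Figure D5:**
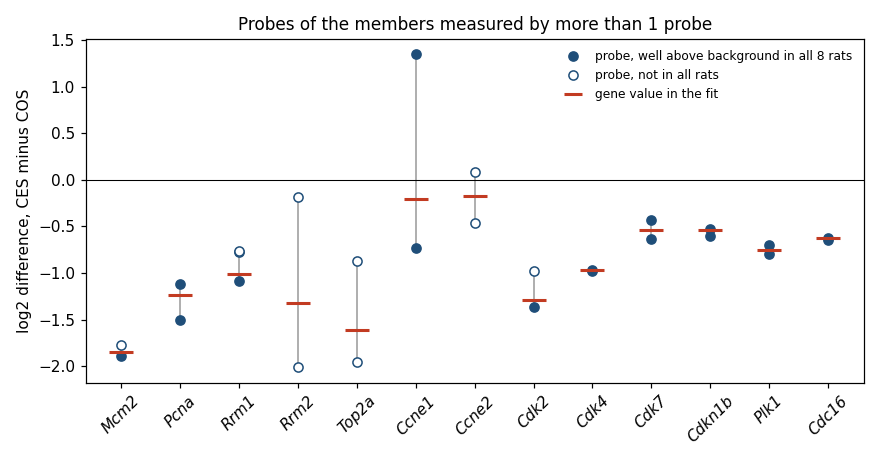
Log2 difference, CES minus COS, of each probe (points, open where a rat was not well above background) and of the gene value used in the fit (red bars) for the 13 members with more than 1 usable probe. The probes of Ccne1 lie at -0.73 and 1.345 and those of Ccne2 at -0.465 and 0.080, those of Rrm2 and Top2a lie over 1 apart on the same side of 0, and those of Mcm2, Cdk4, Cdkn1b, Plk1 and Cdc16 lie close together.

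All 4 quantified CDKs were called lower. Cdk2, the kinase of cyclins E and A, had levels of 0.74, 0.08, 0.13 and -0.75 in COS rats 1 to 4 and -0.84, -1.54, -0.71 and -1.85 in CES rats 1 to 4. The only overlap was between COS rat 4, labelled with Cy5, and CES rat 3, labelled with Cy3, and within each dye all CES rats were lower. The difference was -1.29 (SE 0.224, adjusted p = 0.00445), and -0.95 after loess (adjusted p = 0.0211) with no overlap. Cdk4, the partner of the D-type cyclins, had levels of 4.97, 4.50, 4.80 and 4.30 in COS rats 1 to 4 and 3.42, 4.14, 3.84 and 3.26 in CES rats 1 to 4. The groups did not overlap, the difference was -0.97 (SE 0.23, adjusted p = 0.0115), and the 2 probes gave -0.98 and -0.97. After loess the Cdk4 difference was -0.67 (adjusted p = 0.0864) with overlapping groups. Cdk1, the kinase of mitosis, had levels of 2.45, 1.29, 2.82 and 1.42 in COS rats 1 to 4 and -1.04, 1.97, -0.12 and -0.79 in CES rats 1 to 4. CES rat 2 stood between the Cy5 and the Cy3 rats of COS, while the other CES rats were all below 0. The Cdk1 difference was -1.98 (SE 0.614, adjusted p = 0.0318), with the replicate block its adjusted p was 0.0541, and without CES rat 2 it was -2.77 (adjusted p = 4.57e-05). Cdk7, which activates other CDKs and also serves transcription, differed by -0.54 (adjusted p = 0.0374), close to the median gene at -0.29 relative to it.

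Among the CDK inhibitors and phosphatases, Cdkn2c, an inhibitor of Cdk4 and Cdk6, was called lower, as was Cdk4, while Cdk6 had no level. Its levels were 0.72, -0.37, -0.03 and -0.38 in COS rats 1 to 4 and -0.95, -1.31, -0.94 and -2.04 in CES rats 1 to 4. The groups did not overlap on either scale, and the difference was -1.29 (SE 0.219, adjusted p = 0.00412), although in CES it was well above background in 2 rats only. Cdc25b, a phosphatase that activates CDKs, differed by -0.49 (SE 0.164, adjusted p = 0.0417) and by -0.08 after loess. Cdkn1b, an inhibitor abundant in resting cells, had means of 1.30 ± 0.43 in COS and 0.76 ± 0.66 in CES (SD, n = 4), and its difference of -0.54 was not called (SE 0.256, adjusted p = 0.126).

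Of the 5 quantified genes of mitosis and chromosome segregation 2 were called lower, and all 5 had overlapping groups. Bub1b, a kinase of the spindle checkpoint, had levels of 0.60, -0.73, 1.16 and -0.30 in COS rats 1 to 4 and -2.07, -0.18, -1.71 and -3.01 in CES rats 1 to 4. CES rat 2 lay within the COS range, and the other CES rats below it. The difference was -1.93 (SE 0.548, adjusted p = 0.0235), and -2.66 without CES rat 2. Both Bub1b and Cdk1 were not called when COS rat 1, 3 or 4 or CES rat 1 was left out. Aurka, a kinase of the spindle poles, differed by -0.81 (SE 0.234, adjusted p = 0.025). Not called were Aurkb and Birc5, 2 subunits of the chromosomal passenger complex, with differences of -0.86 (adjusted p = 0.0792) and -0.69 (adjusted p = 0.0754), and the kinase Plk1, with -0.75 (adjusted p = 0.175). Plk1 had its highest CES level in rat 2, at 0.86, within the COS range of -0.09 to 1.32, and without that rat its difference was -1.27 (adjusted p = 0.000709).

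The anaphase-promoting complex marks mitotic proteins for destruction and also acts in resting neurons. Anapc10 had levels of 1.76, 1.49, 2.03 and 1.40 in COS rats 1 to 4 and 0.92, 1.09, 0.99 and 0.76 in CES rats 1 to 4. The groups were apart, and the difference was -0.73 (SE 0.172, adjusted p = 0.0113). After loess the Anapc10 groups were still apart, but the difference was -0.35 and not called (adjusted p = 0.0927). Cdc16 also had groups that did not overlap, with means of 2.64 ± 0.27 in COS and 2.02 ± 0.21 in CES (SD, n = 4) and a difference of -0.63 (adjusted p = 0.026), but after loess they overlapped and the difference was -0.26 (adjusted p = 0.186). Cdc20, its activator in mitosis, differed by -0.90 (adjusted p = 0.0547) and was not called. Anapc2 had levels of 4.74, 4.74, 4.97 and 4.44 in COS rats 1 to 4 and 4.54, 4.51, 5.04 and 4.67 in CES rats 1 to 4. These overlapped on the main scale, with a difference of -0.04 (SE 0.176, adjusted p = 0.893), and its sign turned after loess (0.26, adjusted p = 0.134) and under the other scalings except the processed signal.

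Myc, a transcription factor that promotes growth and entry into the cycle and that is also induced rapidly by stimulation, had levels of 4.13, 4.21, 4.61 and 3.75 in COS rats 1 to 4 and 0.96, 2.78, 1.41 and 0.84 in CES rats 1 to 4. The lowest COS rat was at 3.75 and the highest CES rat, again rat 2, at 2.78. The difference was -2.68 (SE 0.391, adjusted p = 0.00332), a 6.4-fold lower level, and -2.33 after loess (adjusted p = 0.0187). Like Ccnd1 it was called in 23 of 24 alternatives, but after loess not without COS rat 1 or without CES rat 1. Of the 10 spots of its probe, 9 were used. Only Mcm3 had a more negative difference among the members.

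Of 125 further genes of the same pathway, listed by role, 115 had spots under their name and 89 were quantified. Among these, 42 (47.2%) were called lower and 1 (1.12%) higher, against 28.6% and 5.74% of all genes. Their median relative to all genes was -0.37, against -0.74 for the members. Origin licensing and firing genes were called lower in 8 of 14 cases, fork and nucleotide genes in 10 of 22, E2F and pocket protein genes in 5 of 10, other cyclins, inhibitors and regulators in 6 of 15, other mitotic genes in 12 of 22 and other APC genes in 1 of 6. After loess 9 of the 89 were called lower and 5 higher, against 9.32% and 14.4% of all genes, so the share called lower was close to that of all genes. The most negative of the called genes with groups apart was Cdkn1a, an inhibitor of CDKs that p53 induces, with levels of 4.84, 5.69, 5.09 and 4.79 in COS rats 1 to 4 and 1.66, 3.12, 1.77 and 1.74 in CES rats 1 to 4. Its difference was -3.03 (SE 0.306, adjusted p = 0.00227), more negative than that of any member. Bub1, a partner of Bub1b in the checkpoint, followed at -2.15 (adjusted p = 0.0052), and Cdt1, which loads the MCM ring, at -1.81 (adjusted p = 0.0109). The 1 gene called higher, with overlapping groups, was the cytokinesis gene Anln, named after its values were seen, at 0.88 (adjusted p = 0.0166).

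Markers of several cell types also differed between the groups, and their part in the results above was not tested. Of the markers listed for dentate granule neurons, 5 of the 6 on the array were well above background in all rats while Prox1 was so in none. Whether those 5 are particular to granule neurons was not tested, so they do not settle the tissue label. The log2 of the summed levels of the quantified markers was 4.82 to 5.72 in COS and 5.65 to 6.70 in CES. Of the 5 quantified, 4 were called higher, on the main scale and after loess. Summed levels of the lists below were formed in the same way, so the brightest markers weigh most in them. The calls of the other lists depended on the scale, and over all genes 28.6% were called lower and 5.74% higher on the main scale, against 9.32% and 14.4% after loess. Microglia and macrophage markers were called lower in 6 of 9 cases, and in 2 after loess, with summed levels of 7.996 to 8.47 in COS and 5.98 to 7.37 in CES. CES rat 2 had the highest CES value in this list and in the endothelium and pericyte, progenitor and astrocyte lists, but in none of the other lists. Endothelium and pericyte markers were called lower in 5 of 6 cases, and in 2 after loess (5.51 to 6.15 in COS, 4.35 to 5.53 in CES), with Pecam1 well above background in no rat. Markers of neural progenitors and newborn neurons were called lower in 3 and higher in 1 of 6 cases, and in 1 and 1 after loess (4.65 to 5.24 in COS, 4.01 to 4.61 in CES), with Neurod4 well above background in no rat. Astrocyte markers were called lower in 2 and higher in 2 of 7 cases, and in 0 and 1 after loess (8.36 to 8.54 in COS, 7.41 to 8.14 in CES), and oligodendrocyte precursor markers lower in 2 of 4, and in 0 after loess (5.49 to 5.95 and 5.14 to 5.55). No marker of oligodendrocytes (7.80 to 8.66 and 8.23 to 8.86, 0 of 6) or of the choroid plexus (3.71 to 9.27 and 4.02 to 7.60, 0 of 5) was called on either scale. Of the T cell markers 1 was quantified, at -3.16 to -1.56 in COS and -3.59 to -0.44 in CES, and it was not called, while Cd8a was well above background in no rat. Of the neutrophil and monocyte markers 0 of 4 were quantified, and Mmp8 and Ccr2 were well above background in no rat.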

How the data were processed

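The 8 rats were grouped by the sample records as COS (4) and CES (4). Scanner files were made by the authors with Agilent Feature Extraction 10.7.3.1 and, as deposited, give for both channels the intensity of every spot and that of the background around it, a processed intensity that the software background-corrected and dye-normalized by rank-consistent lowess, and flags for well above background, which are reported per gene. The authors also deposited a log2 table, whose columns hold log2 (median signal minus background median) centred on the median of the listed spots. Spot coordinates are those of rn4. No spot was saturated.

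Following the study's methods, a spot was valid at a mean signal of at least 2 times its background. The background-subtracted mean signal was scaled to a median of 1 over that rat's valid spots, averaged over the spots of a gene name that were valid in all rats (26294 spots), and taken to log2. The 1593 spots that the software marked as outliers were left out. Depth here is the number of valid spots per rat, and the number of rats limits the precision. The 2 groups were tested with limma 3.58.1 (R 4.3.3), dye being a fixed term and array a random block estimated by duplicateCorrelation with statmod 1.5.0. Tests were two-sided, p-values were adjusted over all 20787 genes after Benjamini and Hochberg, and 0.05 was the threshold. Because every array holds rats of 1 group, array and group cannot be told apart beyond this random block. The estimated correlation within arrays was -0.0104 in the main fit and 0.239 after loess and Aquantile. The main fit thus treated the rats as nearly independent, although each group had only 2 arrays. Tested on simulated data with rats correlated within arrays, the fit made more false calls than the threshold allows. The adjusted p-values may therefore be too small. Python 3.11.15 with pandas 2.3.3, numpy 2.4.6 and matplotlib 3.10.9 was used for summaries and plots. Replicates are rats that the records list separately.

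The members and the lists of further genes and markers were chosen with earlier results of these data known. All members are named, and of the other pathway genes the 3 largest rises and 3 largest falls among called genes with groups apart, of which there were no rises. The records number the rats 1 to 4 in each group. Deviations from the group means correlated at 0.332, 0.214, 0.306 and 0.346 between COS and CES rats of the same number, who share a dye. Rats that shared a dye but not a number correlated at 0.208 to 0.441. Within a dye the correlations for the same number were -0.0592, -0.0356, -0.0592 and -0.0356. Each group had 2 rats per dye, whose deviations mirror each other, so these are 2 values each given for 2 numbers. No pairing by number beyond the dye was seen, and the replicate number entered as a block only as an alternative. Further alternatives were normexp background correction (offset 50), the processed signal, loess and Aquantile, quantile normalization, no filter, a foreground of 3 times background, the well-above-background flag, the brightest probe, the deposited table, names through RefSeq accessions, no array block, no dye term, the methods' t-test with unequal variances and leaving out each rat. The t-test was adjusted here after Benjamini and Hochberg over all genes. The study instead corrected it for redundant spots of a gene and added a fold-change cut-off for each gene, which was not applied here. Scaling over the spots common to all rats, keeping outlier spots and leaving out each rat after loess were chosen after seeing the data.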

Additional observations from a re-analysis of the deposited data

Results flagged for a closer look

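Among the 74 sets of 4 values, 37 members in each of the 2 groups, 1 had a rat far from the others. Cdc25b in COS rat 4 was at 0.149, against 0.592 to 0.620 in the other COS rats, a gap of 0.942 of the whole range. The gap that counts as far is one that chance passes in about 1 in 20 such sets, so several of the 74 could pass it by chance. COS rat 4 was also the lowest COS rat in 25 of the 37 members, and Cdc25b was not called without any one of the COS rats or without CES rat 1.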

How the results depend on the processing

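The members' median relative to the median of all genes stayed below 0 under every alternative, between -1.12 (processed signal) and -0.49 (normexp background), and it ran from -1.04 to -0.57 when 1 rat was left out. The number of members called lower was less stable. Against 26 it was 4 with normexp background (all genes: 135 higher, 483 lower), 8 after loess and Aquantile (2996 and 1938), 9 after quantile normalization (3018 and 2249), 9 without a filter on valid spots (391 and 2715), 9 in the deposited log2 table (3210 and 1923), 9 when each rat was scaled over the spots common to all (3380 and 1778), 12 with a foreground of 3 times background (2805 lower), 17 over spots well above background in all rats, and 0 with the methods' t-test (0 and 0), which at an unadjusted p under 0.05 put 22 members lower. These alternatives called 1 member higher after loess, after quantile normalization, in the deposited table and when scaled over common spots, against 0.

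Of the further pathway genes, 42 were called lower and 1 higher. The numbers were 1 and 0 with normexp background, 9 and 5 after loess, 12 and 5 after quantile normalization, 14 and 0 without a filter, 18 and 2 with a foreground of 3 times background, 10 and 4 in the deposited table, 9 and 5 when scaled over common spots and 0 and 0 with the t-test, and 3 were higher over spots well above background. Leaving out 1 rat, with or without loess, gave 0 to 32 members lower and 0 to 1 higher, 0 to 58 further genes lower and 0 to 8 higher, and 0 to 6940 of all genes lower and 0 to 4094 higher. In all 8 rats 22 members were well above background, and 37 reached 2 times background.

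With the replicate block 26 members were called lower, and the calls of Tk1, Top2a, Ccnd3 and Cdk1 changed as given above. No other member's call changed with it. Signs turned for members that were not called. Ccne1 was 0.14 after loess, 0.13 after quantile normalization, 0.18 in the deposited table and 0.19 scaled over common spots. Ccne2 was 0.12, 0.079, 0.18 and 0.22 in the same order, 0.20 with a foreground of 3 times background and 0.080 with the brightest probe. Anapc2 was 0.26, 0.25, 0.34 and 0.36, 0.14 with normexp background and 0.0830 with a foreground of 3 times background. Rrm2, called in the main comparison, was 0.22 in the deposited table. Leaving out 1 rat gave -0.41 to 0.40 for Ccne1, -0.27 to 0.22 for Ccne2, -0.72 to 0.0743 for Cdkn1b, -1.27 to 0.034 for Plk1 and -0.15 to 0.28 for Anapc2. Of the other single values under settings that kept all rats, 386 kept their call, 146 lost it and 18 gained it. The cause was not tested. Dim signals also limit these values, as 15 of the 37 members were not well above background in at least 1 rat.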
